A study of Homo sapiens with 24 samples.

Results

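The human replication histone genes were taken as the 73 genes, of 25680 in each of 3 expression tables, whose names begin with HIST1H, HIST2H, HIST3H or HIST4H. By protein class they comprise 6 H1 linker histone genes, 18 H2A, 20 H2B, 14 H3 and 15 H4 genes. On GRCh38, 56 lie on chromosome 6, 16 on chromosome 1 and 1 on chromosome 12, and RefSeq lists HIST1H2APS1, HIST2H2BA and HIST2H2BC as not protein coding. The study treated 3 established acute myeloid leukaemia lines with MI-503, an inhibitor of the contact between menin and MLL proteins, and AC220 (quizartinib), an inhibitor of the FLT3 kinase. MV411 and MOLM13 are lines with an MLL fusion and an activating FLT3 internal tandem duplication, and OCI-AML3 is a line with mutant NPM1 and no MLL fusion. MV411 was sequenced after DMSO, after MI-503 at 2.5 µM for 3 days, after AC220 at 3 nM for 24 h, and after both drugs at those doses and times. MOLM13 and OCI-AML3 were sequenced after DMSO or MI-503 at 2.5 µM, each for 4 days. Each of the 8 groups had 3 libraries that the labels call biological replicates, and p-values measure the spread between those libraries.

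Replication histone genes supply the proteins that package newly made DNA, and most are transcribed strongly in S phase. Their mRNAs usually end in a short stem-loop instead of a poly(A) tail. The stem-loop is bound by SLBP, and a U7 snRNP guides the cut just after it. Several of these genes also give longer, polyadenylated transcripts that run past the stem-loop, which are known from cells that have left the cell cycle or are differentiating.

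The stem-loop was searched in GENCODE 29 transcripts of the members (hg38) as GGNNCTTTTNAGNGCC on the transcript strand, with N for any base. It was found in 32 of the 73 genes, and in 23 of these an annotated transcript ran on for at least 100 bases after it. The sites of 7 members called in MV411 are shown, picked because all but HIST1H2BD have such an extension in a matched transcript. Other members called in MV411 do not: HIST1H2AE had 51 bases after the loop, and HIST1H1C, HIST1H2BK and HIST2H2AC had no match. The loop is in capitals, with 5 flanking bases on each side in lower case.
HIST2H2BE: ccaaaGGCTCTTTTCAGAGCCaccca
HIST1H2AC: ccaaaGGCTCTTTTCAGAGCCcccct
HIST3H2A: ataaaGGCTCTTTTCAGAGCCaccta
HIST1H2AG: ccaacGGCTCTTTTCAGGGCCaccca
HIST1H2BD: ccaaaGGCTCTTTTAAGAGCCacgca
HIST1H2BH: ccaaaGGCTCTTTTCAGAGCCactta
HIST2H2BF: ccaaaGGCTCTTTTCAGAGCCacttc
The annotated transcripts continue after the loop for 1729 bases in HIST2H2BE, 1128 in HIST1H2AC, 390 in HIST3H2A, 1761 in HIST1H2AG, 39 in the matched HIST1H2BD transcript, 1640 in HIST1H2BH and 1479 in HIST2H2BF. Bases after the loop were counted only in transcripts that hold those letters. HIST1H2BD has 2 GENCODE transcripts in a span of 13204 bases, the longest of 789 bases, and its site comes from that of 496 bases. A missing match says only that those letters are not in the annotated transcript, as for HIST1H2BK, whose single GENCODE model of 381 bases has none, although RefSeq gives the gene a span of 8566 bases.

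Reads assigned to genes ranged from 23168887 to 27240357 per library in MV411 and MOLM13 and from 44364964 to 72994481 in OCI-AML3. All libraries are labelled as polyA RNA. In OCI-AML3, however, RPPH1, the RNase P RNA, which has no poly(A) tail, stood at 562280 to 632413 normalised reads, so levels are never compared between lines. Myeloid markers were present in each line, and 10 of 10 in MV411 and MOLM13 and 9 of 10 in OCI-AML3 passed the filter on low values. That filter kept genes with at least 10 normalised reads in at least 3 libraries. It kept 21 histone genes in MV411, 8 in MOLM13 and 59 in OCI-AML3. No read fell on 11 of the 73 in MV411 and on 22 in MOLM13, and each of the 73 had reads in OCI-AML3. MV411 had more libraries and OCI-AML3 more reads per library, so these counts do not compare the lines. HIST1H2AM passed in MV411 only through MI-503 and HIST1H3E only through AC220.

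The summed levels of the marker lists moved with the treatments too, and their part in the histone values was not tested. In MV411 the 10 myeloid markers summed to 73786 to 74869 normalised reads with DMSO, 213718 to 223935 with MI-503, 118944 to 124454 with AC220 and 242565 to 243635 with both. In MOLM13 the sums were 34176 to 35359 with DMSO and 47912 to 50434 with MI-503, and in OCI-AML3 156842 to 159626 and 136455 to 137811. In OCI-AML3 the members of that list were divided, with 3 of 9 tested higher (ITGAM, LYZ and CD33) and 5 lower, PTPRC and CEBPA among them. Of all genes tested in that line 32.9% were higher and 32.8% lower. T and NK cell markers consisted almost wholly of NKG7, with CD3D, CD3E, CD3G and CD2 at 4.07 or less in every library of the 3 lines. In MOLM13 the 4 B cell markers, led by PAX5, summed to 1352 to 1392 normalised reads with DMSO and 895 to 1020 with MI-503. Epithelial and fibroblast markers there, led by KRT18, summed to 672 to 723 and 516 to 673. The B cell marker MS4A1, the globin gene HBB and the platelet gene PF4 were at 0 in MV411 and MOLM13. In OCI-AML3, however, HBB stood at 483 normalised reads in the third DMSO library and at 356 in the first MI-503 library, against 0 to 4.70 in the other 4, so that 1 library of each group stood apart. ITGA2B, a megakaryocyte marker, stood at 824 to 904 in MV411 with DMSO, at 217 to 254 with MI-503, at 823 to 983 with AC220 and at 220 to 302 with both drugs. Other marker sums in MV411 were 879 to 907 for T and NK cells, 126 to 148 for B cells and 148 to 166 for epithelial cells and fibroblasts, led by KRT8, with DMSO. With both drugs they were 2256 to 2544, 71.2 to 93.6 and 209 to 223.

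Histone reads were concentrated on a few genes in MV411 and MOLM13. HIST1H2BK took 31.6% of member reads in MV411 and 30.6% in MOLM13, and the 5 highest genes took 79.3% and 61.4%. In OCI-AML3 the highest gene, the linker histone gene HIST1H1E, took 9.38%, and the 5 highest took 30.3%. The 10 members with a RefSeq span of at least 1000 bases, a limit chosen after the data were seen, held 55.6% of member reads in MV411, 56.6% in MOLM13 and 19.2% in OCI-AML3. These are shares of reads and not levels per length.

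Summed over the 73 genes, histone reads in MV411, as CPM (a share of the assigned reads of each library), were 54.6, 61.0 and 52.0 with DMSO. With MI-503 they were 43.7, 43.2 and 47.2, with AC220 149, 137 and 135, and with both drugs 114, 107 and 112. The 4 groups did not overlap, and H2B genes supplied the largest part in each, with 29.7 ± 2.61 (SD, n = 3) CPM with DMSO and 88.4 ± 4.72 CPM (SD, n = 3) with AC220. In MOLM13 the sums were 13.9, 14.1 and 14.2 with DMSO against 15.0, 14.1 and 15.7 after MI-503, and the groups overlapped. OCI-AML3 had 9791, 9838 and 8978 with DMSO against 7632, 8350 and 8338 with MI-503. There the treated libraries were all below the controls. A sum over chosen genes was not tested. In bulk libraries fewer cells of a kind and less RNA per cell cannot be told apart.

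**Figure D1:**
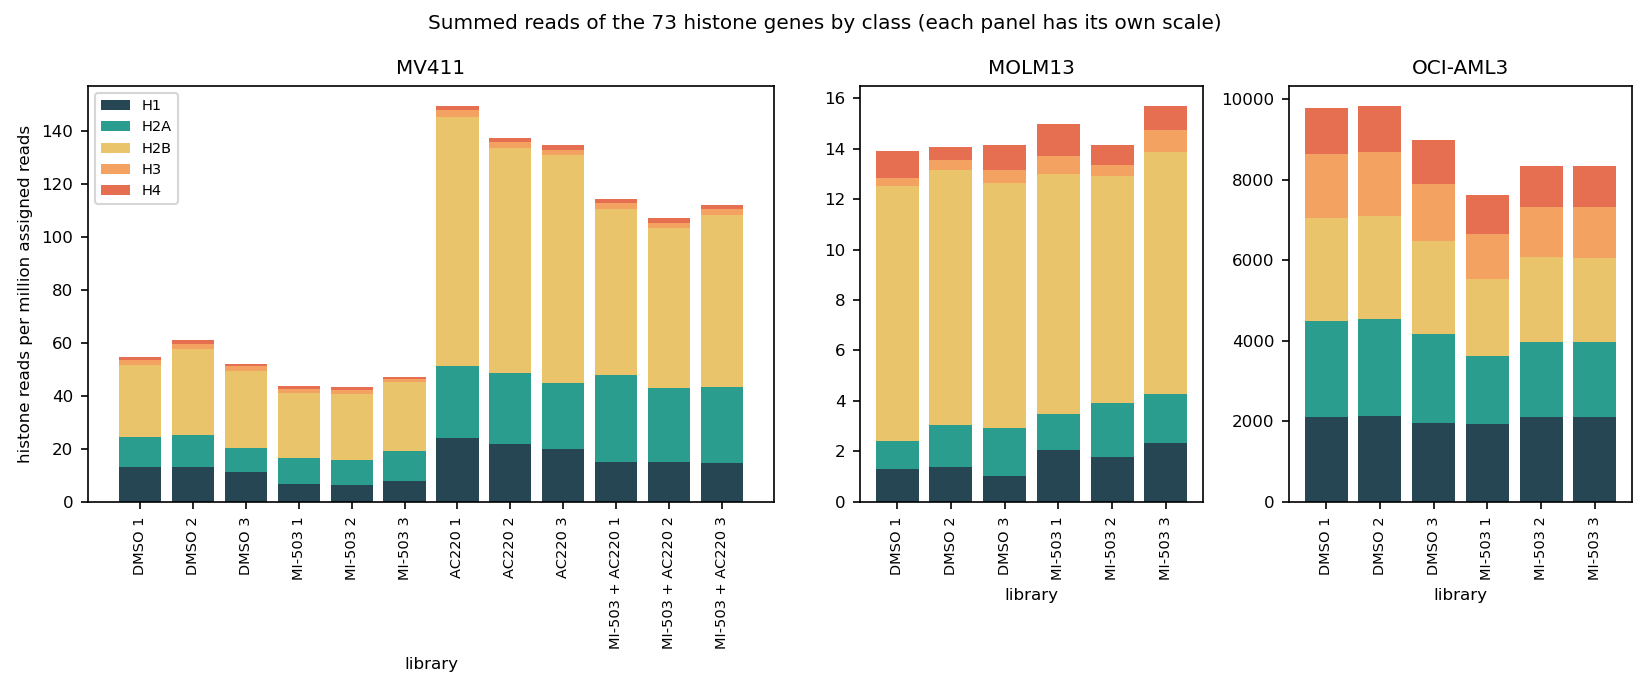
Summed reads of the 73 histone genes in CPM (y axis, own scale in each panel) for each library (x axis), stacked by histone class. In MV411 the AC220 libraries, at 135 to 149, stand above all others of that line, and the H2B segment is the largest part.

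AC220 raised several abundant histone genes in MV411, among them the H2B genes HIST1H2BK and HIST2H2BE and the H2A gene HIST1H2AC, while all 25 tested S phase genes fell. Of the 21 tested members, 9 were higher and 3 lower at a limma adjusted p under 0.05, where 37.7% of all 14421 tested genes were higher and 37.3% lower. Without HIST1H3E and HIST1H2AM, which passed the filter through 1 group only, 8 of 19 were higher and 3 lower. H2A and H2B genes made up 17 of the 21 tested and 7 of the 9 higher. The member median was a log2 change of 0.70 against 0.01 over all genes. The groups did not overlap for 10 members higher and 3 lower, beside 39.1% and 38.7% of all genes. Without HIST1H3E and HIST1H2AM these counts were 9 and 3 of 19.

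HIST1H2BK (chr6:27146418-27146798, minus strand), an H2B gene and the most abundant member, stood at 351, 423 and 384 normalised reads with DMSO and at 1386, 1308 and 1246 with AC220. All treated values lay far above the controls, and the log2 change was 1.77 (SE 0.07, limma adjusted p = 6.77e-17). HIST2H2BE (chr1:149884459-149886652, minus strand), another H2B gene, went from 128, 137 and 125 to 562, 476 and 535, a log2 change of 2.00 (SE 0.08, limma adjusted p = 2.14e-16). The 2 H2B genes thus rose to 3.40 and 4.01 times the control on the log2(value + 1) scale. HIST1H2BD, which also codes for H2B, had 40.0, 68.3 and 43.0 normalised reads with DMSO and 221, 183 and 214 with AC220. Its log2 change of 2.05 (SE 0.18, limma adjusted p = 3.98e-10) was the largest among the tested members. The RefSeq span of HIST1H2BD overlaps those of H2BC6-AS1 and LARP1P1, whose part in its reads was not tested.

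Among H2A genes, HIST1H2AC had 120, 149 and 104 normalised reads with DMSO and 375, 362 and 343 with AC220. No library of the groups overlapped, and the log2 change was 1.54 (SE 0.13, limma adjusted p = 8.51e-11). HIST3H2A, the H2A gene of the small chromosome 1 cluster (chr1:228456979-228457873, minus strand), went from 71.4, 69.3 and 57.6 to 191, 180 and 174. Its log2 change was 1.45 (SE 0.12, limma adjusted p = 1.72e-10). HIST1H2AG rose by 1.63 and HIST1H2AE by 0.79 on the log2 scale (limma adjusted p = 5.81e-07 and 0.00926), the latter at only 14.7 to 35.5 normalised reads. Without the third DMSO library the HIST1H2AE call was lost (limma adjusted p = 0.0586).

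The linker histone gene HIST1H1C (chr6:26055787-26056428, minus strand) was the only H1 gene with enough reads in MV411. It stood at 319, 319 and 274 normalised reads with DMSO and at 597, 542 and 488 with AC220, a log2 change of 0.83 (SE 0.10, limma adjusted p = 3.33e-08). HIST1H3E, an H3 gene, was called higher at 1.11 (SE 0.42, limma adjusted p = 0.0206), but it passed the filter only through the AC220 libraries. No H4 gene passed the filter in MV411 or MOLM13.

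The 3 members that fell with AC220 were HIST2H2AC, HIST1H2BH and HIST2H2BF. HIST2H2AC, an H2A gene, stood at 26.6, 21.1 and 12.7 normalised reads with DMSO and at 5.76, 8.95 and 6.57 with AC220, a log2 change of -1.35 (SE 0.35, limma adjusted p = 0.00134). HIST1H2BH, an H2B gene, went from 26.6, 28.1 and 26.4 to 14.4, 11.9 and 13.1, with a log2 change of -0.99 (SE 0.31, limma adjusted p = 0.00562). Neither gene's groups overlapped. HIST2H2BF, a further H2B gene, went from 75.2, 80.3 and 105 to 54.7, 67.6 and 58.2, a log2 change of -0.51 (SE 0.16, limma adjusted p = 0.00633), and without the third DMSO library the call was lost (limma adjusted p = 0.0585).

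**Figure D2:**
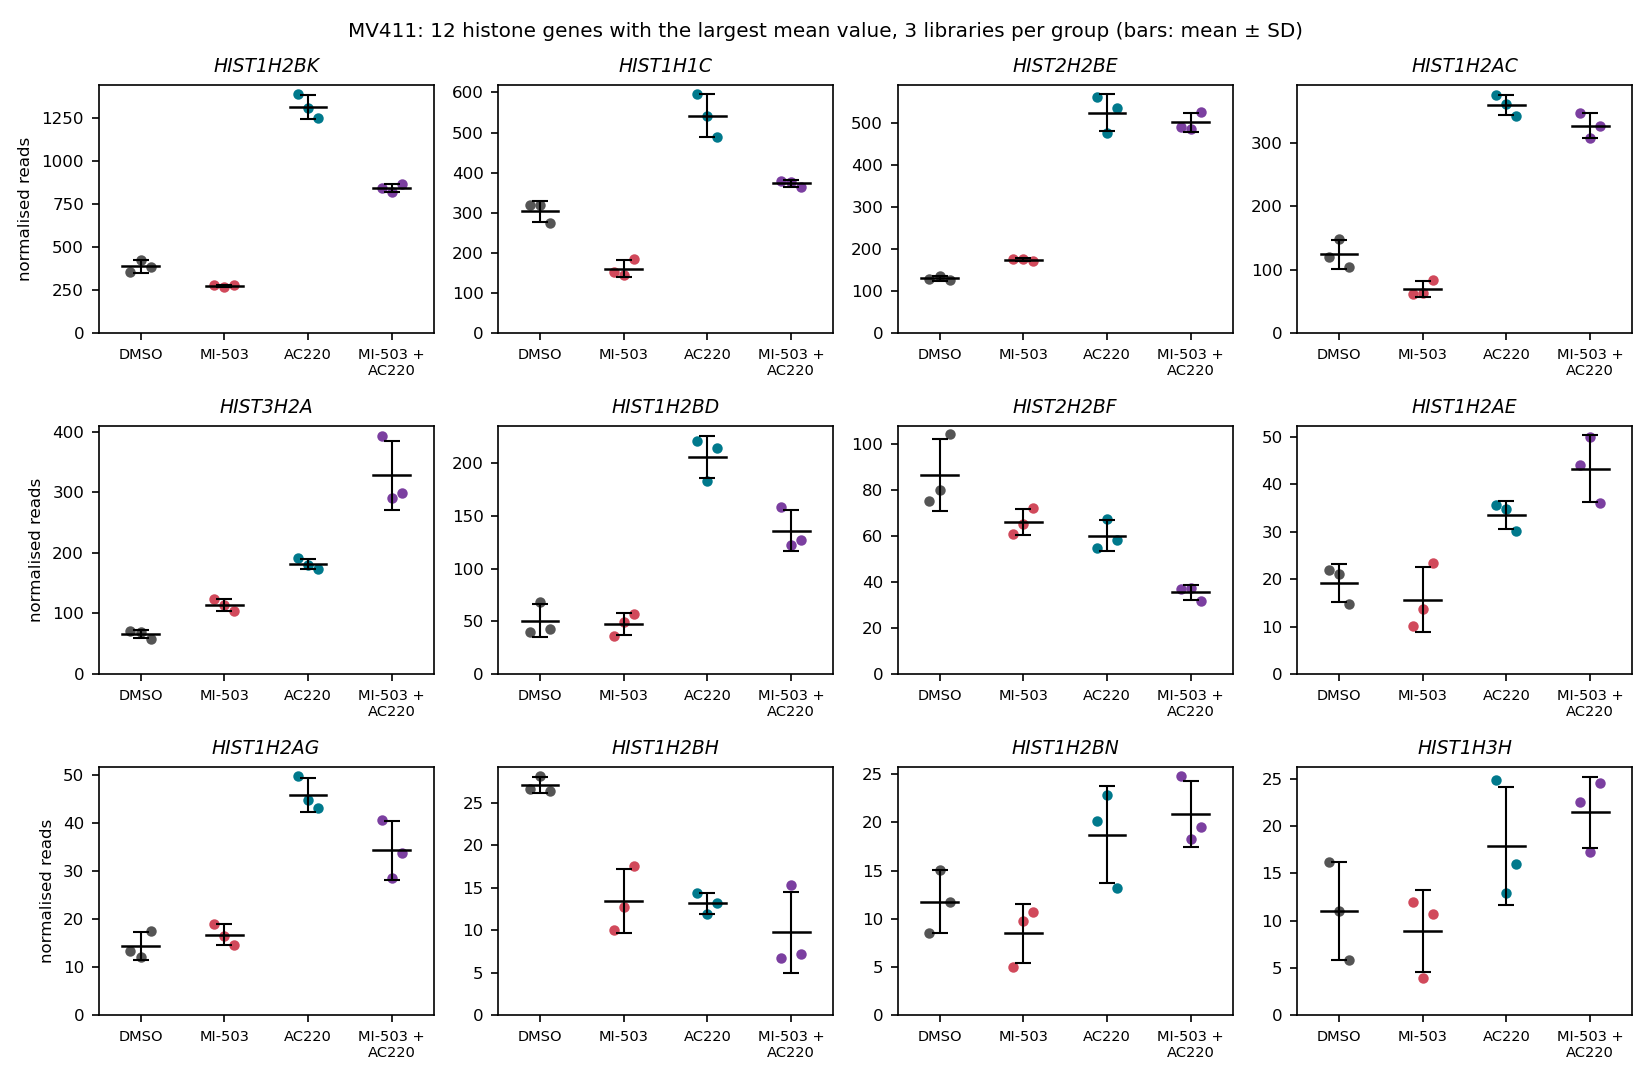
Normalised reads (y axis, from 0) of the 12 histone genes with the largest mean in MV411 for the 4 treatments (x axis). Points are the 3 libraries and bars the mean with its SD. HIST1H2BK reaches 1246 to 1386 with AC220 against 351 to 423 with DMSO, and HIST1H2BH is lower in all 3 treatments.

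HIST2H2AC and HIST2H2BE are divergent neighbours with 323 bases between their starts in GENCODE 29, and they moved in opposite directions with AC220, by -1.35 and 2.00 on the log2 scale. Their shared start region is shown for that reason, read toward HIST2H2BE. It is the RefSeq promoter chr1:149886633-149886932 on the minus strand (GRCh38.p14), from 250 bases before to 50 bases after the start. RefSeq starts HIST2H2BE at 149886682 and HIST2H2AC at 149886918, which are nearer to each other than the GENCODE starts. The HIST1H2BK promoter, chr6:27146809-27147108 on the minus strand, is shown too as that of the most abundant member. Its RefSeq start is 27146858, whereas the GENCODE model printed above starts at 27146798. Capitals mark the TATA box letters TATAAA, the letters CCAAT bound by NF-Y, and the octamer ATTTGCAT, on either strand, and neighbouring matches can run together.
HIST2H2BE: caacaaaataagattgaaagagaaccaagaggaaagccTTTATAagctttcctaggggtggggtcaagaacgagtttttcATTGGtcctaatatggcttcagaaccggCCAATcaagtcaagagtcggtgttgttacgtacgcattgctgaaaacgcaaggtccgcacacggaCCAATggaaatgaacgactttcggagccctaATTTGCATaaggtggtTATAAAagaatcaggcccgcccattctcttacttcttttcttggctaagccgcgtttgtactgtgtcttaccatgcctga
HIST1H2BK: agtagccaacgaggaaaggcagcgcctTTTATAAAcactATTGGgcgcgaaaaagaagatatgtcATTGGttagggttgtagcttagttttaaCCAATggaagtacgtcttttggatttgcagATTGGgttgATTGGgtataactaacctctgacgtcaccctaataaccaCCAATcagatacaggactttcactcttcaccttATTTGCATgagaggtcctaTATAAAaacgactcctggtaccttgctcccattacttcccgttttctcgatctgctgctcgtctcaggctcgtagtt
The HIST2H2BE window holds 2 matches of TATAAA, 3 of CCAAT and 1 of ATTTGCAT, and the HIST1H2BK window 3, 6 and 1. RefSeq promoters were given for 65 members. TATAAA was in 43 of the 65, against 11.95% of all 27305 promoters of this length. CCAAT was in 55, against 35.7% of all, and ATTTGCAT was in 26, against 1.80%. The octamer was found in 11 of 16 H2A promoters, 14 of 18 H2B promoters, 1 of 12 H3 promoters and no H1 or H4 promoter. The windows of divergent partners can share DNA, so a single match can count for both genes. Matches are a description of the letters, and the motifs were chosen with results known.

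Some divergent partners also differed in reads, while others were close, such as HIST1H2AD with 58 reads and HIST1H2BF with 53 in MV411. HIST1H2AH, whose start lies 331 bases from that of HIST1H2BK, had 19 reads over the 12 MV411 libraries against 8501 for HIST1H2BK. The H2A gene HIST3H2A had 2042 reads and its H2B partner HIST3H2BB 72. HIST1H2AC had 2641 reads and its partner HIST1H2BC 172, and HIST1H2BC did not pass the test with AC220 (log2 change 0.36, SE 0.38, limma adjusted p = 0.387). Within the OCI-AML3 table HIST1H2AH had 63615 reads and HIST1H2BK 93867, HIST3H2A had 11767 and HIST3H2BB 33907, and HIST1H2AC had 83040 and HIST1H2BC 80969. Within the MOLM13 table HIST1H2AH had 7 reads and HIST1H2BK 678, HIST3H2A had 17 and HIST3H2BB 0, and HIST1H2AC had 76 and HIST1H2BC 80. These are counts of reads, not levels per length.

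The genes around histone supply went down with AC220 in MV411. SLBP, which binds the stem-loop, had 3799, 3812 and 3741 normalised reads with DMSO and 1651, 1620 and 1670 with AC220 (log2 change -1.20, SE 0.04, limma adjusted p = 1.03e-17). In the list of histone mRNA processing and supply genes, 1 of 19 tested was higher and 15 lower, with a median of -0.50. NPAT, a transcriptional coactivator of these histone genes, changed by -0.39 and ERI1, a nuclease acting at histone mRNA ends, by -1.47. All 25 S phase genes were lower, with a median of -2.57, among them E2F1 at -3.58, PCNA at -1.90 and the proliferation marker MKI67 at -3.21. Histone chaperones were lower in 18 of 22 and higher in 2, with a median of -0.78. ASF1B, which hands H3 and H4 to assembly factors, changed by -4.01, and CHAF1A, a subunit of the replication-coupled assembly factor CAF-1, by -2.36. RPPH1, which has no poly(A) tail, was at 15.4, 18.9 and 30.03 normalised reads with AC220 against 11.4, 15.1 and 4.88 with DMSO (log2 change 1.04, SE 0.42, limma adjusted p = 0.0305). Of 5 tested RNAs without a poly(A) tail 2 were higher with AC220 and 0 lower, with a median of 0.34. All tested genes were higher in 37.7% and lower in 37.3%. The part of these RNAs was not tested.

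Histone variant genes listed as replication-independent were divided. Of 11 tested with AC220, 3 were higher and 6 lower, beside 37.7% and 37.3% of all genes. H2AFZ fell by 2.20, H2AFX by 2.50 and CENPA, the centromeric H3, by 2.41 on the log2 scale. H3F3B and H3F3A, which code for H3.3, fell by 0.50 and 0.21. H1F0, the linker histone of resting and differentiated cells, was at 1933, 1933 and 1953 normalised reads with DMSO and at 4576, 4465 and 4172 with AC220, a log2 change of 1.18 (SE 0.04, limma adjusted p = 3.37e-17). H1FX rose by 0.35, and H2AFJ stood at 0.20 (limma adjusted p = 0.0531).

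MI-503 alone moved abundant histone genes of MV411 in both directions. Of the 21 tested members 3 were higher and 6 lower, where 29.8% of all tested genes were higher and 30.8% lower. Without HIST1H3E and HIST1H2AM 2 of 19 were higher and 6 lower. The member median was -0.34 against -0.01 over all genes, and the groups did not overlap for 3 members higher and 6 lower, beside 32.3% and 34.2% of all genes. Without HIST1H3E and HIST1H2AM they did not overlap for 2 higher and 6 lower of 19. This comparison and those of AC220 and of the combination share their 3 DMSO libraries.

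HIST1H2BK stood at 279, 269 and 277 normalised reads with MI-503, all below the DMSO range, a log2 change of -0.48 (SE 0.07, limma adjusted p = 1.74e-06). HIST1H1C stood at 151, 145 and 184 (log2 change -0.92, SE 0.10, limma adjusted p = 1.35e-08), and HIST1H2AC at 61.2, 63.3 and 83.7 (log2 change -0.83, SE 0.13, limma adjusted p = 4.71e-06). These 3 genes thus fell with MI-503 and rose with AC220. HIST1H2BH changed by -0.99 (limma adjusted p = 0.00731) and HIST1H3D, an H3 gene at 4.01 to 13.05 normalised reads in these groups, by -1.15 (limma adjusted p = 0.00276). The RefSeq span of HIST1H3D overlaps that of HIST1H2AD, and whether counting used the strand is not given in the sources used here. HIST2H2BF changed by -0.37 (limma adjusted p = 0.048), a call that was lost without any 1 of 7 single libraries and with TMM factors, the block, no filter or DESeq2 (limma or DESeq2 adjusted p = 0.0501 to 0.258).

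Higher with MI-503 were HIST3H2A, HIST2H2BE and HIST1H2AM. HIST3H2A stood at 123, 114 and 104 normalised reads, all above the DMSO values, a log2 change of 0.78 (SE 0.12, limma adjusted p = 7.72e-06). HIST2H2BE stood at 176, 175 and 170 (log2 change 0.42, SE 0.08, limma adjusted p = 0.000115). HIST1H2AM, an H2A gene, went from 2.85, 8.03 and 0.98 to 12.03, 12.7 and 12.7, but it passed the filter only through these libraries. The H2B gene HIST1H2BD, which rose with AC220, stood at 36.1, 49.7 and 56.5 and overlapped the controls (log2 change -0.07, SE 0.18, limma adjusted p = 0.762).

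SLBP changed by -0.47 with MI-503 (limma adjusted p = 1.2e-09). Of 19 processing and supply genes 9 were lower and 4 higher, beside the 30.8% and 29.8% of all genes given above, with a median of -0.11. Of the S phase genes 17 of 25 were lower and 1 higher, with a median of -0.22, while MKI67 (-0.03), E2F1 (-0.06), ASF1B (0.09) and CHAF1A (-0.01) did not pass. H1F0 rose by 0.36 and H1FX by 0.84, and H2AFJ by 0.48. H2AFZ fell by 0.54. Of 5 tested RNAs without a poly(A) tail 2 were higher with MI-503, RNA45S5 (0.43, limma adjusted p = 3.62e-06) and SCARNA9 (0.64, limma adjusted p = 0.0271), and none was lower. RPPH1 and RMRP stood at 0.69 and 0.63 (limma adjusted p = 0.165 and 0.0951), and the part of these RNAs was not tested.

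With both drugs in MV411, 10 of the 21 tested members were higher than with DMSO and 3 lower, beside 39.3% and 40.1% of all genes. The median was 0.51 against 0.00307 over all genes. HIST3H2A stood at 394, 291 and 300 normalised reads, above every library of the other groups, a log2 change of 2.29 (SE 0.12, limma adjusted p = 2.18e-14), the largest of the members here. HIST2H2BE stood at 491, 486 and 526 (log2 change 1.94, SE 0.08, limma adjusted p = 2.62e-16) and HIST1H2BK at 841, 819 and 864 (log2 change 1.13, SE 0.07, limma adjusted p = 2.6e-13). HIST1H2AC changed by 1.41, HIST1H2BD by 1.44, HIST1H2AG by 1.21, HIST1H2AE by 1.14 and HIST1H1C by 0.30 (limma adjusted p = 3.32e-10, 1.19e-07, 3.21e-05, 0.000372 and 0.00632). HIST1H3H and HIST1H2BN, at 5.86 to 24.8 normalised reads in these groups, changed by 0.99 and 0.80 (limma adjusted p = 0.0217 and 0.0267). Both calls were lost when single libraries were left out, as was that of HIST1H1C without the third DMSO library (limma adjusted p = 0.053 to 0.153).

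HIST1H2BH, HIST2H2AC and HIST2H2BF were the 3 lower members with both drugs, at -1.47, -1.34 and -1.25 on the log2 scale (limma adjusted p = 0.000127, 0.00129 and 1.61e-07). HIST2H2BF stood at 37.2, 37.6 and 31.8 normalised reads, below every library of the other groups. The 25 S phase genes were again all lower, beside 40.1% of all genes, with a median of -2.39. H1F0 stood at 6089, 5773 and 5582 normalised reads, a log2 change of 1.58.

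Of 26 listed RNAs without a poly(A) tail 17 were in the table and 5 tested. With the combination 3 of the 5 were higher and 0 lower, beside 39.3% and 40.1% of all genes: RPPH1, RMRP and RNA45S5 (log2 changes 3.06, 2.08 and 1.57, limma adjusted p = 5.12e-07, 2.65e-06 and 1.08e-16). RPPH1 stood at 187, 59.005 and 59.5 normalised reads with both drugs and at 4.88 to 15.1 with DMSO, and RMRP, the RNase MRP RNA, at 202, 56.0 and 65.7 against 18.1 to 22.5. RNA45S5, the ribosomal RNA precursor, stood at 146129, 115156 and 113520 against 39527 to 44087. The first combination library was the highest for each of these and for HIST3H2A. Without it HIST3H2A had a log2 change of 2.15, and 9 members were higher and 3 lower. The part of these RNAs in the histone values was not tested.

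Against MI-503 alone, adding AC220 gave 11 members higher and 2 lower, beside 34.9% and 33.6% of all genes, with a median of 0.99 against 0.02. The groups did not overlap for 11 members higher and 3 lower, beside 36.3% and 34.2% of all genes. Without HIST1H2AM and HIST1H3E, which passed the filter through 1 group only, they did not overlap for 11 higher and 2 lower of 19. HIST1H2AC changed by 2.23, HIST1H2BK by 1.61, HIST2H2BE by 1.52, HIST1H2BD by 1.51, HIST3H2A by 1.51, HIST1H2AE by 1.47 and HIST1H1C by 1.22 on the log2 scale. HIST1H3D, HIST1H3H, HIST1H2BN and HIST1H2AG were the other higher members, at 1.38, 1.30, 1.25 and 0.99. HIST2H2BF changed by -0.88 and HIST2H2AC by -0.84 (limma adjusted p = 3.76e-05 and 0.0374), the latter lost without any 1 of 4 single libraries (limma adjusted p = 0.0616 to 0.216). Of 5 tested RNAs without a poly(A) tail 3 were higher here and 0 lower, with a median of 1.14, and their part was not tested.

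Against AC220 alone, adding MI-503 gave 1 member higher and 4 lower, beside 27.4% and 28.1% of all genes, with a median of -0.21 against -0.01. The groups did not overlap for 2 members higher and 6 lower, beside 29.6% and 29.5% of all genes. Without HIST1H2AM and HIST1H3E, which passed the filter through 1 group only, they did not overlap for 2 higher and 5 lower of 19. HIST3H2A was the higher one (log2 change 0.84, SE 0.12, limma adjusted p = 3.59e-06). HIST2H2BF, HIST1H2BK, HIST1H2BD and HIST1H1C were lower, at -0.74, -0.64, -0.60 and -0.53 (limma adjusted p = 0.000399, 3.31e-08, 0.00697 and 4.97e-05). HIST2H2BE stood at -0.06 (SE 0.08, limma adjusted p = 0.544) and HIST1H2AC at -0.14 (SE 0.13, limma adjusted p = 0.368). Of 5 tested RNAs without a poly(A) tail 4 were higher here and 0 lower, with a median of 1.13, and their part was not tested.

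The interaction, which is the combination's log2 change minus those of both single drugs, passed for 3 of 21 members, 2 higher and 1 lower, beside 20.9% and 21.6% of all genes. HIST1H2AC lay 0.69 above the sum of the single changes (SE 0.18, limma adjusted p = 0.00304) and HIST1H1C 0.39 above it (SE 0.13, limma adjusted p = 0.022). HIST2H2BE had an interaction of -0.49 (SE 0.12, limma adjusted p = 0.00172). For HIST3H2A the interaction was 0.06 (SE 0.17, limma adjusted p = 0.81), so that its rises of 0.78 and 1.45 and its combined 2.29 gave no detected departure from a sum on the log2 scale. HIST1H2BK had an interaction of -0.16 (SE 0.10, limma adjusted p = 0.204).

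**Figure D3:**
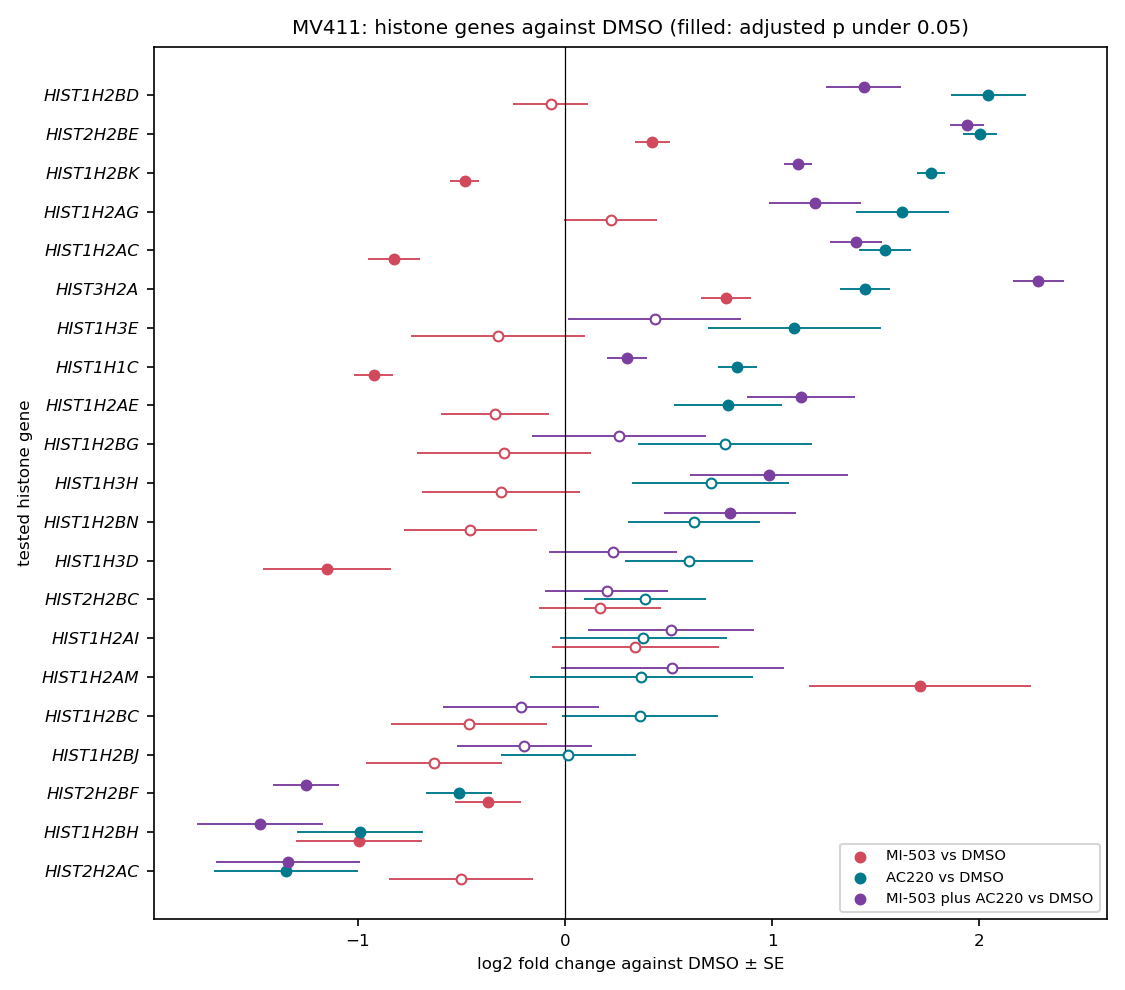
Log2 change against DMSO with its SE (x axis) for the 21 tested histone genes of MV411 (y axis), by treatment. Filled points have a limma adjusted p under 0.05. HIST2H2BE and HIST3H2A lie right of 0 with all 3 treatments and HIST1H2BH and HIST2H2BF left of it, while HIST1H2BK, HIST1H2AC and HIST1H1C lie left with MI-503 and right with AC220.

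The span of HIST2H2BF in RefSeq (chr1:149782689-149812370) overlaps FCGR1A, which codes for the Fc gamma receptor CD64 and was looked at after the values of HIST2H2BF were seen. FCGR1A stood at 772, 819 and 897 normalised reads in MV411 with DMSO, at 570, 518 and 482 with MI-503, at 399, 430 and 434 with AC220 and at 253, 315 and 263 with both. In MOLM13 it stood at 331, 368 and 356 with DMSO and at 595, 633 and 590 with MI-503. In both lines FCGR1A and HIST2H2BF were lower, or higher, in the same treated groups. In OCI-AML3 they were not, with FCGR1A at 1265, 1356 and 1385 against 2100, 2073 and 2085 while HIST2H2BF changed by -0.24. The part of FCGR1A reads in HIST2H2BF was not tested. The RefSeq span of HIST1H2BK likewise overlaps the H4 gene HIST1H4I, which had 1.95 to 13.9 normalised reads across MV411.

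In MOLM13, MI-503 raised 3 and lowered 1 of the 8 tested histone genes relative to the median gene, where 29.9% of 13391 tested genes were higher and 29.9% lower. The deposited values of this line carry a shift of -0.54 (log2) in the median gene, which was removed by median-of-ratios scaling. On the deposited scale 0 members were higher and 2 lower. The member median was 0.08 against -0.01 over all genes on the rescaled values. The groups did not overlap for 3 members higher and 1 lower, beside 32.2% and 32.6% of all genes.

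HIST1H1C stood at 23.4, 25.7 and 18.3 normalised reads with DMSO in MOLM13 and at 33.4, 39.7 and 47.3 with MI-503, a log2 change of 0.81 (SE 0.22, limma adjusted p = 0.00392). On the deposited scale it was 0.29 (limma adjusted p = 0.249). HIST2H2BF went from 41.2, 41.5 and 38.6 to 55.6, 68.3 and 69.0 (log2 change 0.65, SE 0.16, limma adjusted p = 0.00219), and was 0.13 on the deposited scale (limma adjusted p = 0.538). HIST2H2BE, at 15.9, 9.89 and 7.11 against 20.2, 23.1 and 17.7, changed by 0.89 (SE 0.31, limma adjusted p = 0.0184). That call was lost on the deposited scale, with DESeq2 and without either of 2 single libraries (limma or DESeq2 adjusted p = 0.0656 to 0.252). All 3 higher genes had groups that did not overlap.

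HIST1H2BK, the most abundant member in MOLM13, stood at 133, 137 and 130 normalised reads with DMSO and at 96.0, 84.8 and 95.6 with MI-503. All treated libraries were lower, and the log2 change was -0.53 (SE 0.11, limma adjusted p = 0.00059) and -1.06 on the deposited scale (limma adjusted p = 4.81e-12). HIST1H2AC, HIST1H2BC, HIST1H2BD and the pseudogene HIST2H2BC did not pass and overlapped between groups, except that HIST1H2BD was the other gene lower on the deposited scale (-0.78, limma adjusted p = 0.0347). The 65 untested members, H3 and H4 genes included, were too low for a test.

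**Figure D4:**
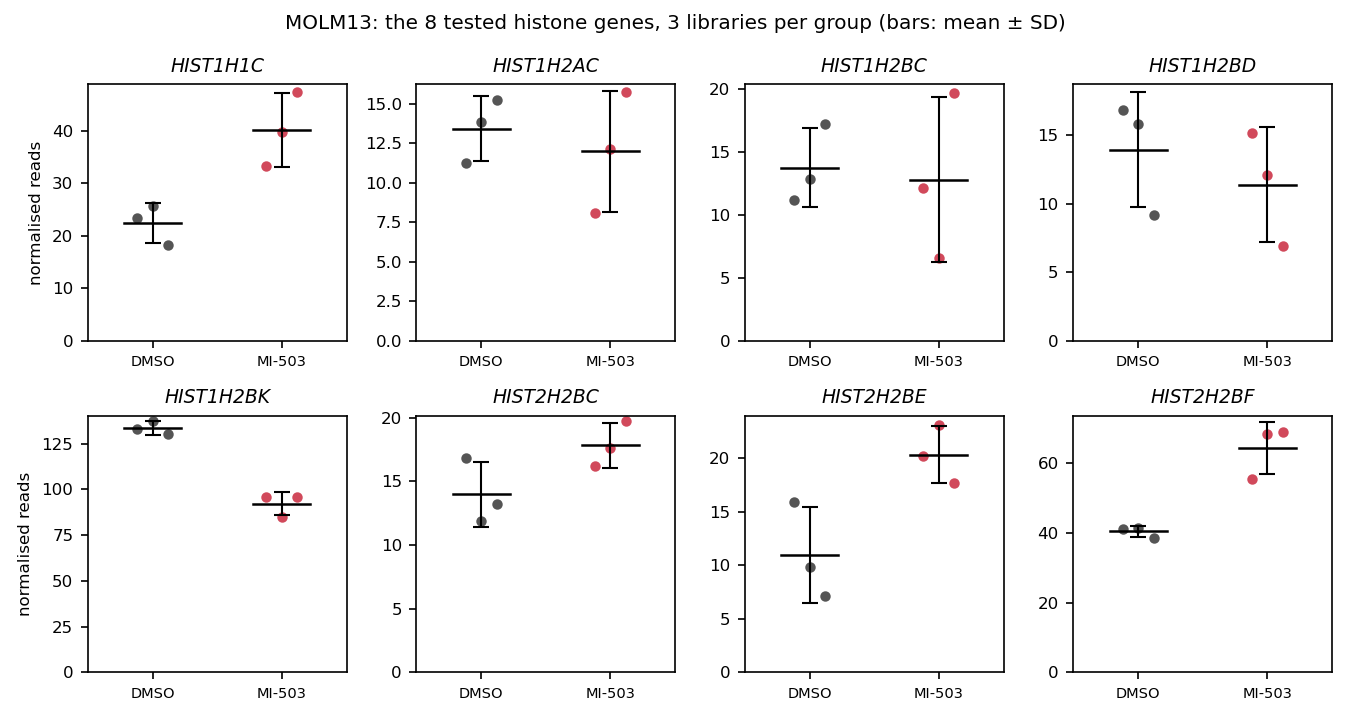
Normalised reads (y axis, from 0) of the 8 tested histone genes in MOLM13 with DMSO and MI-503 (x axis). Points are the 3 libraries and bars the mean with its SD. HIST1H2BK falls from 130 to 137 down to 84.8 to 96.0, and HIST1H1C, HIST2H2BE and HIST2H2BF are higher with MI-503.

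Around the histone genes of MOLM13, SLBP changed by -0.15 (limma adjusted p = 0.00067), and 15 of 19 processing and supply genes were lower with a median of -0.15. S phase genes were lower in 18 of 25 and higher in 1, with a median of -0.20, while MKI67 stood at -0.00230 and E2F1 at -0.10. Of all genes tested in MOLM13 29.9% were lower and 29.9% higher. H1F0 rose by 1.11, from 256, 303 and 281 to 683, 576 and 563 normalised reads. H1FX was at 0.41, a direction that flipped to -0.12 on the deposited scale. RPPH1 was at 6.90 to 13.8 normalised reads over all 6 libraries, and RMRP did not pass (-0.53, limma adjusted p = 0.175).

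The effect of MI-503 differed between MOLM13 and MV411 for 2 of 8 members tested in both, beside 30.6% of genes higher, with none lower beside 26.3%. HIST1H1C fell by 0.92 in MV411 and rose by 0.81 in MOLM13, a difference of 1.73 (SE 0.22, limma adjusted p = 5.01e-07). HIST2H2BF changed by -0.37 and 0.65, a difference of 1.02 (SE 0.22, limma adjusted p = 0.000442), which on the deposited scale was 0.50 (limma adjusted p = 0.0655). HIST1H2BK had nearly equal changes of -0.48 and -0.53, with a difference of -0.05 (SE 0.13, limma adjusted p = 0.785). On the deposited scale that difference was -0.57 (limma adjusted p = 0.00112). The median gene on that scale was at -0.54 in MOLM13 and -0.01 in MV411, so line differences on it include the MOLM13 shift. Treatment lasted 3 days in MV411 and 4 in MOLM13, so line and time cannot be told apart.

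In OCI-AML3 most histone genes were lower with MI-503 by a modest amount relative to the median gene. Of the 59 tested members 52 were lower and 2 higher, where 32.8% of 15682 tested genes were lower and 32.9% higher. The member median was -0.37 against -0.00131 over all genes. The groups did not overlap for 51 lower and 2 higher members, beside 34.8% and 34.9%. HIST2H2AA3 and HIST2H2AA4 have the same value in every library, and with such rows taken once 51 of 58 were lower and 2 higher, with a median of -0.37. The deposited values carry a shift of -0.16 in the median gene, and the factors that remove it span 0.813 to 1.27 over the 6 libraries. On the deposited scale 12 members were lower and 0 higher. The 2 higher genes on the rescaled values, HIST1H4D and HIST1H4L, stood at -0.07 and 0.01 there.

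By class, with the same-valued pair taken once, 15 of 15 tested H2A genes, 17 of 18 H2B genes and 8 of 8 H3 genes were lower, with medians of -0.41, -0.43 and -0.43. Among H4 genes 8 of 12 were lower and 2 higher, with a median of -0.23, and among H1 genes 3 of 5 were lower, with a median of -0.18. HIST1H1E and HIST1H1B, the 2 members with the largest values, did not pass. HIST1H1E stood at 49356, 50823 and 48093 normalised reads with DMSO and at 47792, 50465 and 50628 with MI-503 (log2 change 0.01, SE 0.03, limma adjusted p = 0.876). HIST1H1B stood at 42260, 41990 and 38356 against 36539, 40281 and 40653 (log2 change -0.06, SE 0.04, limma adjusted p = 0.242). HIST1H2BI, HIST1H4E and HIST4H4 were the other members that did not pass.

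Among members with over 1000 normalised reads in every library, HIST1H2AK, an H2A gene, changed most. It stood at 5208, 5327 and 4593 with DMSO and at 2212, 2473 and 2574 with MI-503, a log2 change of -1.06 (SE 0.06, limma adjusted p = 2.06e-08). HIST1H3F, an H3 gene, went from 3689, 3668 and 3317 to 1999, 1985 and 2064 (log2 change -0.82, SE 0.04, limma adjusted p = 9.06e-09). HIST1H2AB went from 3630, 3612 and 3045 to 1784, 2059 and 1993 (log2 change -0.82, SE 0.07, limma adjusted p = 5.03e-07). None of these groups overlapped. HIST3H2A, which rose with MI-503 in MV411, went from 2507, 2503 and 2081 to 1169, 1509 and 1476, a log2 change of -0.78 (SE 0.09, limma adjusted p = 1.17e-05). These 4 genes also passed on the deposited scale, at -1.22, -0.98, -0.97 and -0.93 (limma adjusted p = 0.000206 to 0.00783).

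HIST1H2BE, HIST2H2BA and HIST1H1T, a linker histone gene known from testis, had larger or similar changes at 6.21 to 47.2 normalised reads. Their log2 changes were -1.25, -1.10 and -1.03 (limma adjusted p = 0.00226, 0.00526 and 0.00656). The pair HIST2H2AA3 and HIST2H2AA4, near-identical copies that count as 1 measurement, had a log2 change of -0.72 (limma adjusted p = 0.00738). HIST2H3A with HIST2H3C and HIST2H4A with HIST2H4B are 2 further such pairs. Of the other 4 members with the most reads in MV411, HIST1H2BK changed by -0.29, HIST2H2BE by -0.30, HIST1H2AC by -0.41 and HIST1H1C by -0.18. The HIST1H1C groups overlapped, and of these genes HIST1H2BK, HIST2H2BE and HIST1H1C did not pass on the deposited scale (limma adjusted p = 0.344, 0.325 and 0.516).

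HIST1H4L and HIST1H4D, both H4 genes, were the 2 higher members on the rescaled values. HIST1H4L stood at 4676, 4455 and 4405 normalised reads with DMSO and at 4928, 5105 and 5239 with MI-503, a log2 change of 0.17 (SE 0.03, limma adjusted p = 0.000715). HIST1H4D stood at 6307, 6046 and 6101 against 6772, 6353 and 6488 (log2 change 0.09, SE 0.03, limma adjusted p = 0.0291), and without any 1 of 3 single libraries that call was lost (limma adjusted p = 0.0539 to 0.114). The promoters of HIST1H4L (chr6:27873485-27873784) and HIST1H2AK (chr6:27838326-27838625), both on the minus strand, are shown because these members went opposite ways, with the same motifs in capitals.
HIST1H4L: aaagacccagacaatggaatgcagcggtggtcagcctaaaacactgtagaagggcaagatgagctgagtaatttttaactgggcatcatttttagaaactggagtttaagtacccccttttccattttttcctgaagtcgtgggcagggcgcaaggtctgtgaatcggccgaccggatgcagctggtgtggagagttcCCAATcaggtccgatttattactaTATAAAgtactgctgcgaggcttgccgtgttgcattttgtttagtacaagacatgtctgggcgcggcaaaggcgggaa
HIST1H2AK: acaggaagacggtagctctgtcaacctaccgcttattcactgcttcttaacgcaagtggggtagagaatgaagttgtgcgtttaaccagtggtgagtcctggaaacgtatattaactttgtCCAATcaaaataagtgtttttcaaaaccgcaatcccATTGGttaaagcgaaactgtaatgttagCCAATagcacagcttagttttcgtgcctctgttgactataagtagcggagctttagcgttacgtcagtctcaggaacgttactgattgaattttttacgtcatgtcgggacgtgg
The HIST1H4L window holds 1 match of TATAAA and 1 of the letters CCAAT, and the HIST1H2AK window 3 of the latter. It was in 3 of 13 H4 promoters and in every promoter given for the other 4 classes.

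**Figure D5:**
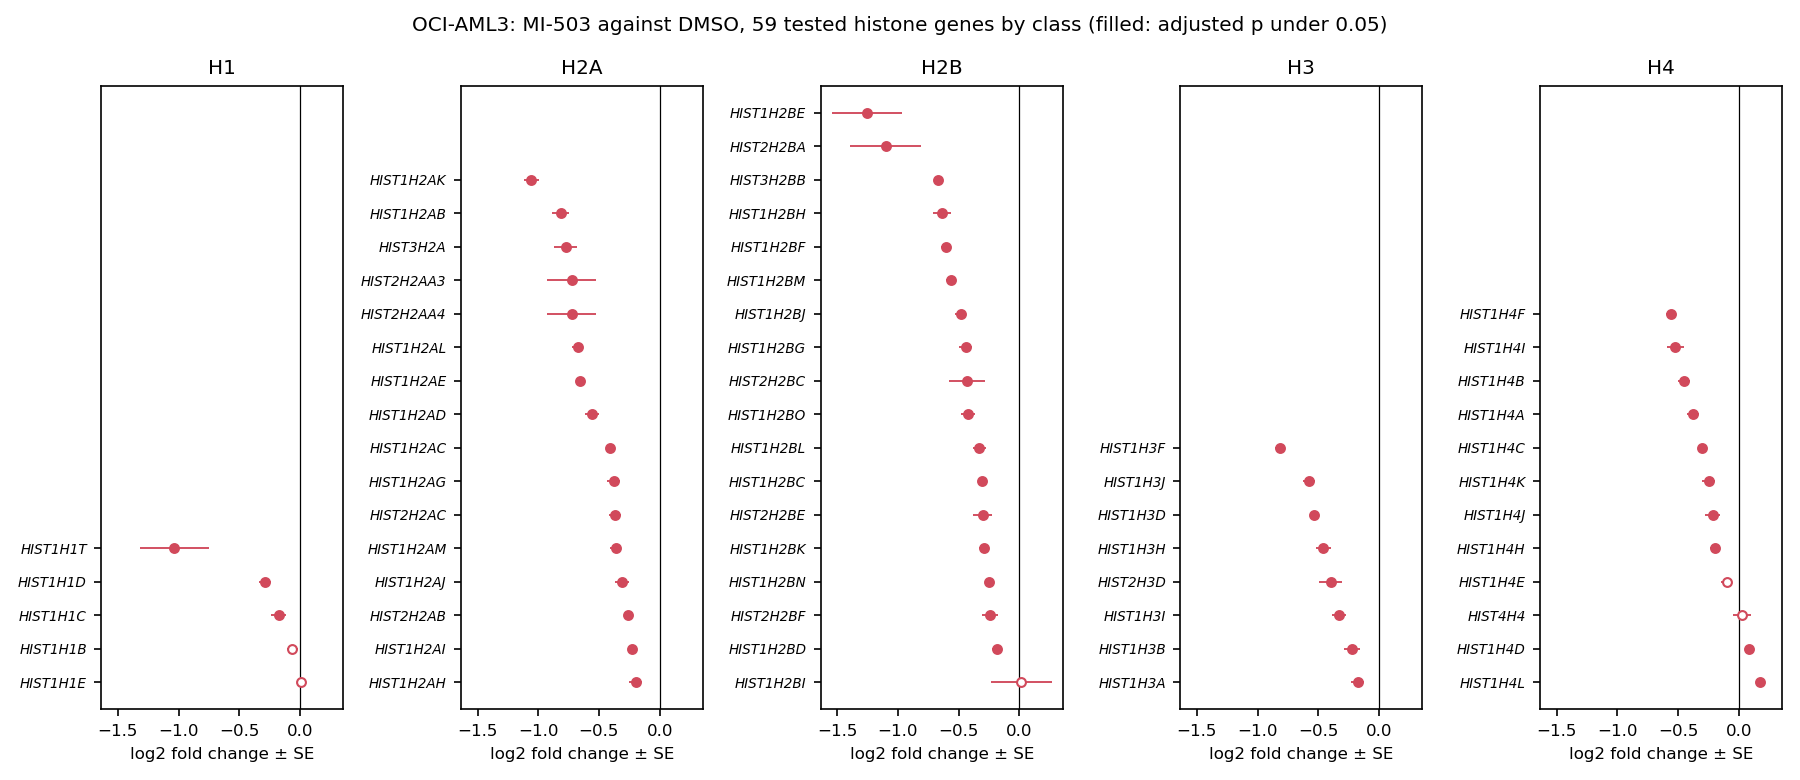
Log2 change with MI-503 in OCI-AML3 with its SE (x axis) for the 59 tested histone genes (y axis), in 1 panel per class. Filled points have a limma adjusted p under 0.05 on rescaled values. The H2A and H3 genes all lie left of 0, and HIST1H4D and HIST1H4L lie right of it.

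Other RNAs without a poly(A) tail were divided in OCI-AML3, with 4 of 17 higher, 7 lower and a median of -0.13. For these and the lists below, 32.9% of all genes tested were higher and 32.8% lower. RPPH1 changed by -0.10 (limma adjusted p = 0.00651) and RMRP by -0.04 (limma adjusted p = 0.495). Their part in the histone values was not tested. SLBP was at -0.07 (limma adjusted p = 0.0368) and NPAT at 0.06 (limma adjusted p = 0.383), and 8 of 19 processing and supply genes were lower and 5 higher. S phase genes were lower in 14 of 25 and higher in 4, with a median of -0.11, and PCNA was at -0.11, CHAF1A at -0.27 and MKI67 at -0.10 (limma adjusted p = 0.01, 5.77e-06 and 0.0712). H1F0 fell by 1.49, from 1776, 1907 and 1744 normalised reads to 651, 629 and 654. The first MI-503 library had the fewest reads and the lowest histone sum of its group, and without it 51 members were lower and 2 higher. Without both libraries that held HBB reads, an alternative chosen after seeing the data, 53 were lower and 1 higher, and HIST1H4D was no longer called (0.06, limma adjusted p = 0.0504), while HIST1H1B was called lower (-0.06, limma adjusted p = 0.00175).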

How the data were processed

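RNA was measured in 24 libraries of 3 lines with spike-in RNA added by cell number, per the labels' protocols. The deposited tables hold normalised signal for 25680 genes, made with DESeq version 2 on hg38 per the submitters' processing notes. The aligner, counting program and annotation are not given in the sources used here. In each library 100% of deposited values were whole multiples of 1 step (tolerance 0.001), so reads were recovered. Deposited values were divided by median-of-ratios factors with a geometric mean of 1. These factors were 1 in MV411, so its values are unchanged although its columns carry the spike-in's name. In MOLM13 and OCI-AML3 they removed a shift common to all genes. Results are therefore relative to the median gene.

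limma (version 3.58.1, R 4.3.3) with a variance trend was run on log2(value + 1) over all genes that reached 10 in 3 or more libraries. Tests were two-sided with Benjamini-Hochberg adjustment over all genes tested and a threshold of 0.05. Fold changes are on the log2(value + 1) scale, which understates changes of low genes. The 12 MV411 libraries shared 1 fit. The fits were tested on simulated data. The members, lists, scaling and motifs were chosen with earlier results of these data known. Named genes were the 12 members with the largest mean per table, up to 8 called members per direction with a mean of at least 10, and a list of histone supply, variant and S phase genes. Divergent partners, FCGR1A, RNA45S5 and members outside this rule were named after their values were seen. Replicates were compared by a chi-square of read counts between libraries of 1 group, which gave 1.59 to 9.41 per degree of freedom. Each pair thus lay above 1, the value for counting error alone. No p-value was computed, and this cannot tell libraries made from 1 RNA sample from those of separate cultures. Members were matched by symbol or position to RefSeq (GRCh38.p14, 73 of 73, promoters for 65) and GENCODE 29 (73 of 73). Alternatives were the deposited scale, TMM factors, equal totals, pseudocounts of 0.5 and 8, a minimum of 50, no filter, a mean of at least 10, no variance trend, a replicate block, only the libraries compared, edgeR 4.0.16 and DESeq2 1.42.0 on recovered reads, and leaving out each library.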

Additional observations from a re-analysis of the deposited data

Results flagged for a closer look

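In MV411 the combination departed from the sum of the single-drug changes for 3 histone genes by limma's interaction term. These were 2 higher and 1 lower of 21 tested members, beside 20.9% and 21.6% of all genes. HIST1H2AC had an interaction of 0.69, HIST1H1C of 0.39 and HIST2H2BE of -0.49 on the log2 scale. For HIST1H1C the adjusted p of 0.022 moved to between 0.05 and 0.0733 with equal totals, without the variance trend, or without any 1 of 5 single libraries. The calls of HIST1H2AC and HIST2H2BE were kept in each alternative run.

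Between lines, MI-503 gave effects that differed for 2 members by limma's line by treatment term. Both effects were higher in MOLM13, of 8 members tested, beside 30.6% of all genes higher and 26.3% lower. HIST1H1C differed by 1.73 between MOLM13 and MV411, and by 1.22 on the deposited scale (limma adjusted p = 3.49e-07). The deposited scale keeps the shift of MOLM13 in the median gene, which the MV411 values do not carry. HIST2H2BF differed by 1.02, and its span overlaps FCGR1A, whose values stand beside it above. Days of treatment differed between these lines.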

How the results depend on the processing

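Over alternatives other than leaving out 1 library, 188 of 212 counts of members called stayed within 1.5 times the reported count and 24 did not, and with 1 library left out 177 of 192 stayed. A minimum value of 50, which tests fewer genes, gave 1 lower member with AC220, 6 higher and 1 lower with both drugs, 6 higher and 1 lower for both drugs against MI-503, 1 higher in MOLM13 and 1 higher for the line difference. No filter gave 11 lower with AC220, 6 lower with both drugs, 3 higher for both against AC220, 4 higher for the interaction, 6 higher in MOLM13 and 5 higher for the line difference. DESeq2 gave 1 lower for both drugs against MI-503. edgeR's quasi-likelihood test on the recovered reads called 11 members higher and 3 lower with AC220 in MV411, 3 and 6 there for MI-503, 10 and 3 for both drugs, 3 and 1 in MOLM13, and 2 and 52 in OCI-AML3. For the interaction, equal totals gave 1 higher and no variance trend 2 lower. The deposited scale gave 0 higher and 2 lower in MOLM13, 0 higher and 12 lower in OCI-AML3, and 1 higher and 1 lower for the line difference. No variance trend gave 1 higher in OCI-AML3. Leaving out both OCI-AML3 libraries with HBB reads, chosen after seeing the data, gave 1 higher and 53 lower there. With 1 library left out, counts ranged from 1 to 3 lower for both drugs against MI-503, 1 to 3 higher and 1 to 3 lower for the interaction, and 1 to 2 higher in OCI-AML3. The replicate numbers did not pair the libraries: same-numbered deviations correlated at -0.0814 to 0.121 in MV411, -0.00675 to 0.0697 in MOLM13 and -0.0497 to 0.0378 in OCI-AML3. With a replicate block, 5 members in place of 6 were lower with MI-503 in MV411 and 3 in place of 2 for both drugs against MI-503, and no other count moved. Signs reversed on the deposited scale for HIST1H4D in OCI-AML3 (-0.072), for H2AFX (-0.40), H3F3A (-0.49), H1FX (-0.12) and CENPA (-0.45) in MOLM13, and for the line difference of SLBP (-0.21), NPAT (-0.45), PCNA (-0.38), MKI67 (-0.50), H2AFZ (-0.30), H2AFX (-0.31), H3F3A (-0.34), H3F3B (-0.33) and CENPA (-0.22). With 1 library left out MKI67 in MOLM13 ranged from -0.0806 to 0.105 around -0.00230, the highest without the first MI-503 library. On the deposited scale the median gene was at -0.54 in MOLM13, -0.16 in OCI-AML3 and -0.01 in MV411. The signs reversed on that scale all turned negative and include this shift. The cause of changes under the other alternatives was not tested. Too few reads for a test fell on 52 members in MV411 and 65 in MOLM13.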
